A study of Mus musculus with 6 samples.

Results

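The genes described here are 10 chromatin regulators whose human counterparts are mutated in clonal hematopoiesis or that act in the same pathways: the de novo DNA methyltransferases *Dnmt3a* and *Dnmt3b*, the methylcytosine oxidases *Tet1*, *Tet2* and *Tet3*, the Polycomb genes *Ezh2*, *Ezh1*, *Bmi1* and *Asxl1*, and the MLL1 methyltransferase *Kmt2a*. They were chosen by gene name, and all 10 were found among the 54532 genes of the deposited table. Of these 10, 8 had a mean of at least 1 FPKM (fragments normalised for the length of the gene and the depth of the library) and were tested, among 11552 genes tested, while *Tet1* and *Tet2* lay under that level.

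RNA-seq was made from LSKs, the Lin-Sca1+c-Kit+ bone marrow cells that hold hematopoietic stem and progenitor cells, of C57BL/6 mice carrying floxed *Myh9*, the gene of the non-muscle myosin IIA heavy chain. The 3 *Myh9*-deficient libraries (cKO) came from Myh9fl/fl;Mx1-cre mice, and the 3 control libraries (CTRL) from littermates carrying floxed alleles with no cre. Both groups received poly I:C at 5 mg/kg, in 2 or 3 doses, on which the sources differ, and 100000 LSKs were sorted for each library on day 4 after the first dose. Poly I:C induces interferon, which drives the Mx1 promoter in blood cells and also in other tissues, so deletion is not limited to LSKs. How many mice gave each cell set is not stated, so the p-values measure only the spread between these cell sets.

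DNMT3A and DNMT3B place methyl groups on unmethylated CG dinucleotides, and the TET enzymes oxidize methylcytosine as a step towards its removal. EZH2 and its paralog EZH1 are the catalytic subunits of Polycomb repressive complex 2 (PRC2), which methylates histone H3 on lysine 27, and BMI1 is a subunit of PRC1, the complex that ubiquitylates histone H2A. ASXL1 binds the deubiquitinase BAP1, which removes that ubiquitin, and KMT2A methylates histone H3 on lysine 4 and keeps *Hoxa* genes active in hematopoietic stem cells.

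The libraries held 17571544 to 19894562 reads on genes, and replicates correlated at 0.991 to 0.993 within a group against 0.974 to 0.977 between groups (Pearson's r of log2 values across genes). *Myh9* itself measured 23.0, 22.6 and 22.0 FPKM in the control libraries and 18.4, 19.96 and 17.7 FPKM in the cKO libraries, a log2 fold change of -0.26 (SE 0.049, adjusted p = 0.00642, limma). The groups did not overlap, and the floxed exon cannot be read from a value for the whole gene. The sorting markers *Kit* and *Ly6a* (Sca1) averaged 23.9 and 95.4 FPKM in control LSKs, while 5 of the 7 lineage genes of the sort (*Cd3e*, *Cd4*, *Cd8a*, *Itgam* and *Ly6g*) averaged under 1 FPKM. The sum of the 7 was 10.5 to 11.3 FPKM in control and 11.8 to 12.8 FPKM in cKO libraries. Of the 2 tested, 1 was higher and 1, *Ptprc*, lower in cKO LSKs (5.87 and 5.21 FPKM, adjusted p = 0.0329). *Ptprc* stands here for B220, but its value sums over all transcripts of the gene. Neither it nor the sum of the 7 is therefore a reading of lineage-positive cells alone. Marker genes of the blood lineages moved with the genotype: all 9 erythroid and all 6 megakaryocyte genes tested were higher in cKO LSKs (summed FPKM over the whole erythroid list 557 to 564 in control and 986 to 1027 in cKO libraries), and 12 of 13 neutrophil and monocyte genes were lower (sums of 11119 to 11151 and 6158 to 6264 FPKM). Of the mast cell and basophil genes 6 of 8 tested were higher, of the T and NK cell genes 5 of 7 were higher and 1 lower, and of the B and plasma cell genes 4 of 7 were higher and 2 lower. Over all genes tested, 19.9% were higher and 20.6% lower. Summed FPKM rose over the mast cell and basophil list (143 to 155 and 206 to 215) and the B and plasma cell list (584 to 600 and 976 to 1084). The T and NK sum went the other way, from 371 to 382 FPKM in control to 349 to 352 FPKM in cKO libraries. *Cd3e* was at 0 in the 3 control libraries. Whether these shifts contribute to the differences below was not tested, and in such bulk samples fewer cells of a type and less RNA per cell cannot be told apart.

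The sequences shown first are the promoters of *Dnmt3b* and *Bmi1*, the genes that were higher in cKO LSKs, and the promoters of *Dnmt3a*, the paralog of *Dnmt3b* that was lower. Each is the 250 bases before a RefSeq transcription start (GRCm38.p6, the assembly of the mm10 build), 5′ to 3′ in the direction of transcription, with every CG dinucleotide, the substrate of the DNMT3 and TET enzymes, in capitals. The *Dnmt3b* window is chr2:153649199-153649448 and the *Bmi1* window chr2:18676768-18677017, both on the plus strand and just upstream of the first exon. *Dnmt3a* has 2 overlapping outer windows, of which the first, at chr12:3806730-3806979, is shown, and an inner window at chr12:3891494-3891743, which precedes a start inside the gene from which a shorter protein is made, also on the plus strand.
Dnmt3b: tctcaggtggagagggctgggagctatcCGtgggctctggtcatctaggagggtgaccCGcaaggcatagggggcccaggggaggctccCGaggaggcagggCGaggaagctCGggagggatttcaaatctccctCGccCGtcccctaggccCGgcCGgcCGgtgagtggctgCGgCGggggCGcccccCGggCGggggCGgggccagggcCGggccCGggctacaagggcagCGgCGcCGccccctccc
Bmi1: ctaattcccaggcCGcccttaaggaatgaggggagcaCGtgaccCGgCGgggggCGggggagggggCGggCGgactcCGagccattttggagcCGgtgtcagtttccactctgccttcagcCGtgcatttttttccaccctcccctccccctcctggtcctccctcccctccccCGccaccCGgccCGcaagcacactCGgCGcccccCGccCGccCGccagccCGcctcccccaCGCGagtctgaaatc
Dnmt3a, outer start: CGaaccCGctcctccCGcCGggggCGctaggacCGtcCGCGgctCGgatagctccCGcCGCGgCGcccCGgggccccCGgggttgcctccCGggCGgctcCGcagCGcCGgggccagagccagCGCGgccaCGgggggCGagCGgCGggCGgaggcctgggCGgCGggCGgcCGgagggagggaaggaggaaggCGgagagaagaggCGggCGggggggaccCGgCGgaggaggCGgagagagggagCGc
Dnmt3a, inner start: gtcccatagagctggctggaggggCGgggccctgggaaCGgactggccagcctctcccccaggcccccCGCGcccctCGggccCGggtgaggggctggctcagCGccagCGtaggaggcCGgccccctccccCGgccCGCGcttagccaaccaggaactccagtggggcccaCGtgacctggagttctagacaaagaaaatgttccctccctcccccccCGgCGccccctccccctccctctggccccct

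The *Dnmt3b* and *Bmi1* windows each held 21 CG dinucleotides, the first outer *Dnmt3a* window 38 and the inner *Dnmt3a* window 15. Over all 32851 windows of this length in the RefSeq table, the median was 6 and the quartiles were 2 and 16. Windows were found for all 10 genes, 12 in all, and *Tet2* had the most CG dinucleotides (51) and *Asxl1* the fewest (11). The median of all windows was thus below each of the 12. The deposited values sum over all transcripts of a gene, so they do not separate the outer from the inner start of *Dnmt3a*, and DNA methylation was not measured in these libraries.

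In cKO LSKs, *Dnmt3b* and *Bmi1* rose, and *Dnmt3a*, *Kmt2a* and *Ezh2* fell, while *Asxl1*, *Tet3* and *Ezh1* did not pass the test. Thus 2 of 8 genes tested were higher, beside 19.9% of all genes tested, and 3 of 8 were lower, beside 20.6% (limma on log2(FPKM + 1), adjusted p under 0.05). The groups did not overlap for 2 genes tested that were higher, beside 25.5% of all genes, and for 6 that were lower, beside 28.5%. With 8 genes the counts of higher genes sit near the shares over all genes, and nothing particular to the 10 regulators as a group is read from these counts. The median log2 fold change was -0.15 over the 8 genes and -0.01 over all genes tested. The rises passed in all 19 alternative analyses, whereas none of the 3 falls passed once the overall trend of the differences with gene length was removed (limma, 0 of 8 genes lower, and 0 at an unadjusted p under 0.05).

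**Figure D1:**
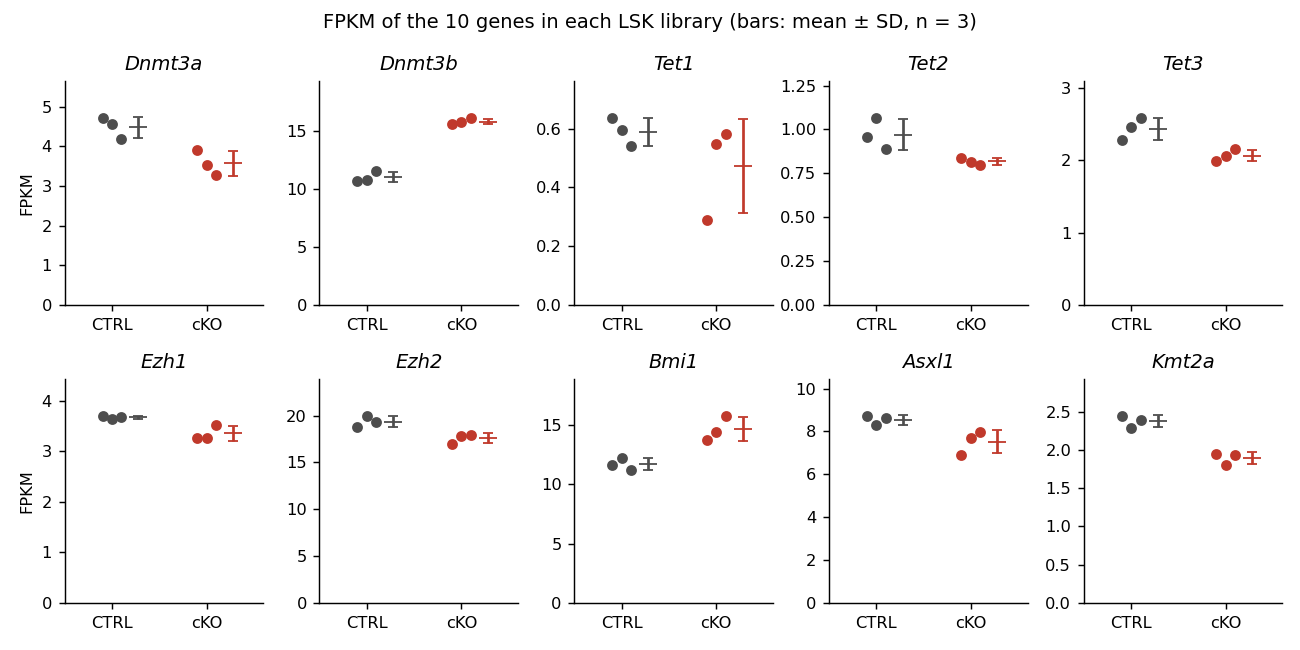
FPKM (vertical axes, starting at 0 and scaled for each gene) of the 10 genes in the 3 control (CTRL, grey) and 3 cKO (red) LSK libraries, with the mean ± SD (n = 3) beside the points. The red points lie above the grey ones for *Dnmt3b* and *Bmi1* and below them for 7 genes, and they overlap for *Tet1*, where 1 cKO library sits apart at 0.290 FPKM.

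FPKM is scaled here by the joined length of all exons of a gene, not by that of the transcripts expressed. The order of levels between genes rests partly on these lengths. In control LSKs the levels ran from 19.3 FPKM for *Ezh2* down to 0.589 FPKM for *Tet1*. *Bmi1* (11.7 FPKM) and *Dnmt3b* (11.01 FPKM) came next and their libraries overlapped, followed by *Asxl1* (8.54 FPKM), *Dnmt3a* (4.48 FPKM) and *Ezh1* (3.68 FPKM). *Tet3* (2.43 FPKM) and *Kmt2a* (2.38 FPKM) also overlapped, and *Tet2* (0.971 FPKM) lay between them and *Tet1*. In cKO LSKs *Dnmt3b* stood above *Bmi1* in mean level, again with overlapping libraries, and *Dnmt3a* (3.57 FPKM) came to overlap *Ezh1* (3.35 FPKM). The order of the remaining means was the same in both groups.

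*Dnmt3b* (ENSMUSG00000027478, chr2:153649450-153687730) showed the largest difference of the 8 genes tested. It measured 10.7, 10.8 and 11.5 FPKM in control libraries and 15.6, 15.8 and 16.1 FPKM in cKO libraries. All 3 cKO libraries were above every control library, and the mean was higher by 43.7% (11.01 ± 0.442 and 15.8 ± 0.248 FPKM, SD, n = 3). The log2 fold change was 0.49 (SE 0.039, adjusted p = 0.000207), at the 95.2 percentile of all genes tested, and over the 19 alternatives the adjusted p did not exceed 0.00321. Between 972 and 1529 reads lay behind each value. *Dnmt3c*, a duplicate of *Dnmt3b* that starts 8921 bases after its end, held 16, 17 and 4 reads in control and 38, 27 and 30 reads in cKO libraries. Since the handling of reads that match several places is not given in the sources used here, a small part of either value may belong to the other gene.

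*Dnmt3a* (ENSMUSG00000020661, chr12:3806007-3914443), the paralog that is the most often mutated gene of human clonal hematopoiesis, went the other way. It measured 4.70, 4.55 and 4.19 FPKM in control libraries and 3.91, 3.53 and 3.28 FPKM in cKO libraries. Every cKO library was below every control library, although the gap between the nearest libraries of the groups was smaller than the range within either group. The log2 fold change was -0.26 (SE 0.069, adjusted p = 0.0232), with 1015 to 1556 reads behind each value. The call was lost without control replicate 1 (adjusted p = 0.0772) or 2 (0.0691), without cKO replicate 2 (0.0584) or 3 (0.0642), and with the length trend removed (log2 fold change -0.15, adjusted p = 0.134).

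Within the pair, *Dnmt3b* made up 69.5, 70.4 and 73.3% of the summed FPKM of *Dnmt3a* and *Dnmt3b* in control libraries and 80.0, 81.7 and 83.1% in cKO libraries. The shares did not overlap, and the sum was 15.5 ± 0.193 FPKM in control and 19.4 ± 0.106 FPKM in cKO LSKs (SD, n = 3). The shares rest on the lengths used for scaling, 16642 bases for *Dnmt3a* and 5106 bases for *Dnmt3b*. *Dnmt3a* held more reads than *Dnmt3b* in control libraries (1334 to 1556 and 972 to 1129). In cKO libraries it held fewer (1015 to 1219 and 1469 to 1529). The log2 ratio of *Dnmt3b* to *Dnmt3a* (FPKM + 1) was higher by 0.75 (SE 0.099, exact two-sided permutation p = 0.1, adjusted p = 0.5 over 5 ratios). With 3 libraries against 3, 0.1 is the smallest p that this test can give.

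Of 16 partner genes of DNA methylation listed, 14 were tested, of which 1 rose, 8 fell and 5 did not pass, with a median log2 fold change of -0.15. That is 7.14% higher and 57.1% lower, beside 19.9% and 20.6% of all genes tested. The maintenance methyltransferase *Dnmt1*, which copies methylation onto the new strand, fell from 50.8 ± 0.551 to 39.2 ± 1.18 FPKM (log2 fold change of -0.37 at an adjusted p of 0.000243). *Idh1*, the isocitrate dehydrogenase whose product 2-oxoglutarate the TET enzymes use, fell from 40.2 ± 0.625 to 18.8 ± 1.55 FPKM (-1.06, adjusted p = 4.08e-05), and *Mbd4*, a glycosylase at mismatched CG sites, from 4.29 ± 0.386 to 3.18 ± 0.374 FPKM (-0.34, adjusted p = 0.0204). The methyl-CG reader *Mbd2* was the gene that rose, from 32.9 ± 1.26 to 40.3 ± 1.09 FPKM (0.29, adjusted p = 0.00167). With the length trend removed 8 of the 14 were lower, and without control replicate 1 the number was 5.

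The 3 *Tet* genes were lowly expressed in LSKs: *Tet3* did not pass the test, and *Tet1* and *Tet2* were under the filter. *Tet3* (ENSMUSG00000034832, chr6:83362373-83459084) measured 2.27, 2.45 and 2.57 FPKM in control libraries and 1.99, 2.05 and 2.15 FPKM in cKO libraries. The groups were apart by less than the range within the control libraries, and the log2 fold change of -0.16 had an SE of 0.063 and an adjusted p of 0.0795 (95% interval -0.31 to -0.014 before adjustment). It passed with voom on reads recovered from the FPKM values (adjusted p = 0.0109, and 0.0106 over genes with a mean of at least 50 reads) and without a trend in the moderation (0.0348), and in none of the other 15 alternatives. *Tet2* (chr3:133463679-133545139), the demethylation gene most often lost in clonal hematopoiesis, measured 0.960, 1.06 and 0.889 FPKM in control libraries and 0.839, 0.816 and 0.800 FPKM in cKO libraries. Its groups did not overlap, but 251 to 322 reads spread over 16870 bases lay behind each value and it fell under the filter. Without a filter on low values its adjusted p was 0.342, and with voom over genes with a mean of at least 50 recovered reads, an analysis added after seeing the data, it was 0.0855 (log2 fold change -0.22).

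*Tet1* (chr10:62804570-62908996) was the lowest of the 10 genes and the least even. It measured 0.634, 0.595 and 0.539 FPKM in control libraries and 0.290, 0.546 and 0.581 FPKM in cKO libraries. cKO replicate 1, with 84 reads, was below the other 5 libraries, which held 154 to 195 reads, and the other two cKO libraries lay within the control range. No difference was detectable at this depth (adjusted p = 0.518 without a filter and 0.132 with voom over genes with a mean of at least 50 recovered reads). The sum of the 3 *Tet* genes averaged 3.99 ± 0.120 FPKM in control and 3.35 ± 0.211 FPKM in cKO LSKs, and *Tet3* held 60.9% and 61.6% of it. The log2 ratios among the *Tet* genes changed by -0.05 for *Tet3* to *Tet2* (SE 0.067, exact permutation p = 0.7, adjusted p = 0.875) and by 0.05 for *Tet1* to *Tet3* (SE 0.097, exact permutation p = 0.5, adjusted p = 0.833), both within their error.

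**Figure D2:**
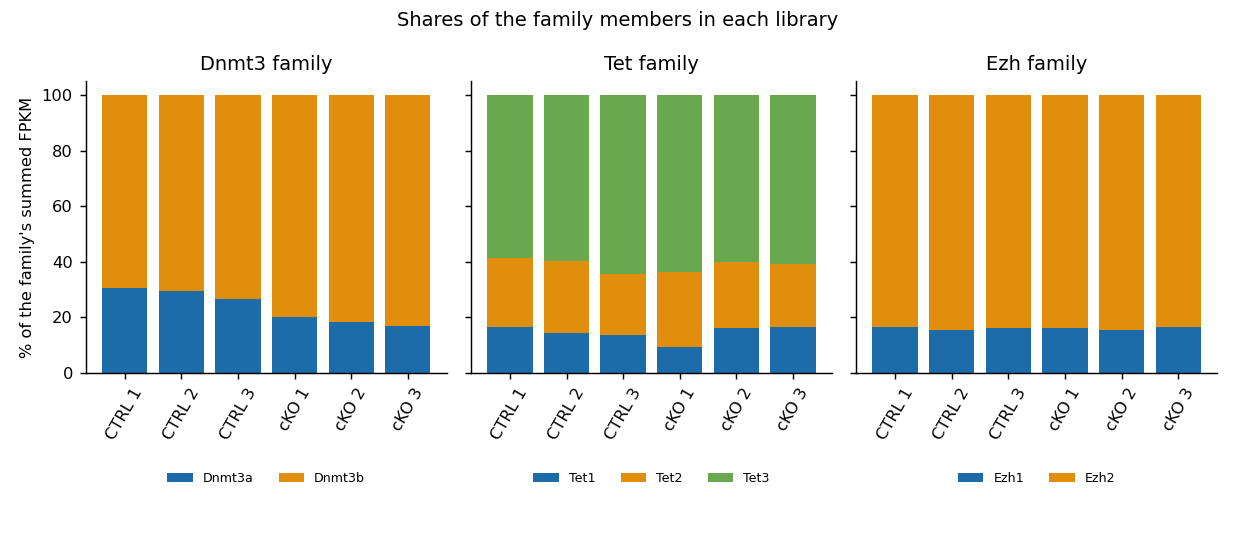
Share (vertical axis, % of the summed FPKM) that each gene held within the Dnmt3, Tet and Ezh families, with 1 bar for each of the 3 control (CTRL) and 3 cKO libraries. *Dnmt3b* held 69.5 to 73.3% of its pair in control and 80.0 to 83.1% in cKO libraries, while *Ezh2* held 83.5 to 84.5% of its pair over all 6 libraries.

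*Ezh2* (ENSMUSG00000029687, chr6:47530139-47595341), the PRC2 methyltransferase of dividing cells, was the most highly expressed of the 10 genes. It measured 18.8, 19.9 and 19.3 FPKM in control libraries and 17.0, 17.9 and 17.9 FPKM in cKO libraries, with no overlap between the groups. The log2 fold change of -0.13 (SE 0.038, adjusted p = 0.0318) was the smallest of those that passed. The call was lost when any library other than control replicate 1 was left out (adjusted p of 0.0512 to 0.1001) and with the length trend removed (adjusted p = 0.229).

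*Ezh1* (chr11:101191115-101226463), the paralog used more in cells that divide little, measured 3.70, 3.65 and 3.68 FPKM in control libraries and 3.27, 3.27 and 3.52 FPKM in cKO libraries. It was also separate between the groups but did not pass (log2 fold change -0.10, SE 0.050, adjusted p = 0.148, 95% interval -0.22 to 0.017). *Ezh2* held 84.02 ± 0.496% of the pair's summed FPKM in control and 83.97 ± 0.498% in cKO LSKs. The log2 ratio of *Ezh2* to *Ezh1* changed by -0.03 (SE 0.038, exact permutation p = 0.5, adjusted p = 0.833), less than the spread between libraries.

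All 11 PRC2 partner genes were tested, of which 2 rose, 4 fell and 5 did not pass (median log2 fold change -0.15). That is 18.2% higher and 36.4% lower, beside 19.9% and 20.6% of all genes tested. Without control replicate 1 or 3, 1 was higher. The core subunit *Eed* rose from 21.3 ± 1.07 to 24.4 ± 1.23 FPKM (log2 fold change of 0.19 at an adjusted p of 0.025), as did the histone-binding subunit *Rbbp7* (0.11, adjusted p = 0.0111). Its paralog *Rbbp4* fell (-0.22, adjusted p = 0.00134), as did *Jarid2*, an accessory subunit that helps recruit PRC2 (-0.27, adjusted p = 0.00583). The largest fall was that of *Kdm6b*, a demethylase that removes the mark PRC2 places, from 2.65 ± 0.184 to 1.50 ± 0.129 FPKM (-0.55, adjusted p = 0.00161).

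*Bmi1* (ENSMUSG00000026739, chr2:18677018-18686629), the PRC1 subunit needed for self-renewal of adult hematopoietic stem cells, was the other gene that rose. It measured 11.6, 12.3 and 11.2 FPKM in control libraries and 13.8, 14.4 and 15.8 FPKM in cKO libraries. No library of one group reached the range of the other, and the mean was higher by 25.3% (11.7 ± 0.506 and 14.7 ± 1.01 FPKM, SD, n = 3). The log2 fold change was 0.30 (SE 0.057, adjusted p = 0.00666), at the 89.3 percentile of all genes tested, and the adjusted p was at most 0.0331 over the 19 alternatives. *Bmi1* was also the shortest of the 10 genes, with 3974 bases of exon, and 858 to 1166 reads lay behind each value.

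Among 22 PRC1 partner genes, 21 were tested, of which 4 rose, 7 fell and 10 did not pass. That is 19.0% higher and 33.3% lower, beside 19.9% and 20.6% of all genes tested. *Yaf2* (log2 fold change 0.32, adjusted p = 0.0315) and *Pcgf6* (0.30, adjusted p = 0.000476), subunits of variant PRC1 complexes, rose, and so did *Cbx7* (0.29, adjusted p = 0.0275), a reader of the PRC2 mark in complexes with BMI1. The variant complex subunits *Bcor* (-0.39, adjusted p = 0.00206) and *Kdm2b* (-0.36, adjusted p = 0.0033) fell. The median log2 fold change of the 21 genes was -0.05. With the length trend removed 3 were higher and 5 lower; with 1 library left out 1 to 3 were higher (1 without control replicate 1, 2 without cKO replicate 2 or 3) and 4 or 5 lower (4 without control replicate 3 or any 1 cKO replicate).

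*Asxl1* (ENSMUSG00000042548, chr2:153345829-153404007) measured 8.71, 8.28 and 8.62 FPKM in control libraries and 6.91, 7.69 and 7.97 FPKM in cKO libraries. The groups did not overlap, and cKO replicate 1 was the lowest. The log2 fold change of -0.16 (SE 0.057, adjusted p = 0.0575) missed the threshold. *Asxl1* passed in 5 of 19 alternatives. These were without cKO replicate 3 (adjusted p = 0.0455), with FPKM scaled to the same sum in each library (0.0447) and with a filter at 5 FPKM (0.0498). The others were voom on recovered reads (0.0208) and voom over genes with a mean of at least 50 reads (0.0199). With the length trend removed the adjusted p was 0.256. A transcript on the other strand, 2500004C02Rik, overlaps *Asxl1* and rose from 80 to 86 reads in control to 100 to 119 reads in cKO libraries (adjusted p = 0.0119). The library kit was not stated to keep strand, so reads of the overlap cannot be told apart.

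*Asxl1* and *Dnmt3b* are neighbors on chromosome 2, with 245442 bases between the end of one and the start of the other, and they had opposite signs. Of the genes between them, *Commd7*, a COMM domain gene, measured 16.7, 16.9 and 18.8 FPKM in control and 19.3, 19.1 and 18.7 FPKM in cKO libraries, with overlap (adjusted p = 0.0954). *Nol4l* had an adjusted p of 0.278. These neighbors were chosen for their position.

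Of 10 genes that act with ASXL1 and BAP1, 8 were tested, of which 1 rose, 5 fell and 2 did not pass (median log2 fold change -0.16). That is 12.5% higher and 62.5% lower, beside 19.9% and 20.6% of all genes tested. *Hcfc1*, a chromatin scaffold bound by BAP1, fell from 18.3 ± 0.502 to 15.2 ± 0.217 FPKM (log2 fold change of -0.25 at an adjusted p of 0.0017). The paralog *Asxl2* (-0.22, adjusted p = 0.0493) and the histone demethylase *Kdm1b* (-0.20, adjusted p = 0.044) fell as well. *Ogt*, the O-GlcNAc transferase that modifies HCFC1, rose from 13.9 ± 0.367 to 16.5 ± 1.22 FPKM (0.23, adjusted p = 0.0178). With the length trend removed, 1 of these 8 genes was lower and 1 higher. The number lower was also 1 without any 1 of the control replicates, 2 without cKO replicate 1 or 3, 3 without cKO replicate 2, and 2 with median-of-ratios scaling, without a filter on low values or with the replicate block. *Ogt* did not pass without control replicate 2 or without cKO replicate 1.

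*Kmt2a* (ENSMUSG00000002028, chr9:44803355-44881296) measured 2.44, 2.29 and 2.39 FPKM in control libraries and 1.95, 1.80 and 1.93 FPKM in cKO libraries. The groups were well apart, the lowest control library at 2.29 FPKM and the highest cKO library at 1.95 FPKM. The log2 fold change was -0.22 (SE 0.060, adjusted p = 0.0244), with 546 to 809 reads behind each value. The call was lost when any library other than cKO replicate 1 was left out (adjusted p of 0.0507 to 0.0785), with the replicate number as a block (0.0558) and with the length trend removed (log2 fold change -0.11, adjusted p = 0.211).

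Of 23 MLL and COMPASS partners, 21 were tested, of which 3 rose, 3 fell and 15 did not pass (median log2 fold change -0.03). That is 14.3% in each direction, beside 19.9% of all genes tested that were higher and 20.6% that were lower. With 1 library left out 1 or 2 were higher (1 without control replicate 2 or 3 or cKO replicate 3), and with the replicate block 1. *Dpy30* (log2 fold change 0.26, adjusted p = 0.0108) and *Ash2l* (0.10, adjusted p = 0.0402), core subunits shared by these methyltransferase complexes, rose, and so did *Hcfc2* (0.22, adjusted p = 0.0241). *Men1*, which encodes menin, the subunit that tethers KMT2A to chromatin, fell from 26.9 ± 0.414 to 23.4 ± 1.45 FPKM (-0.20, adjusted p = 0.017). *Aff1* and *Mllt1*, elongation factors that are fusion partners of KMT2A in leukemia, fell too (-0.60, adjusted p = 0.000135, and -0.25, adjusted p = 0.00526).

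**Figure D3:**
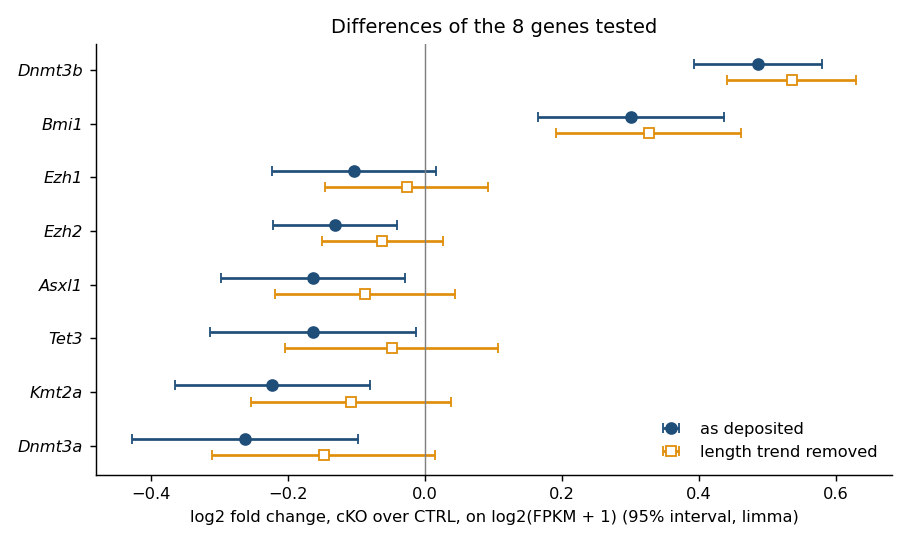
Log2 fold change of cKO over control LSKs (horizontal axis, on log2(FPKM + 1), with 95% limma intervals) of the 8 genes tested, on the deposited values (filled circles) and after each library's trend with gene length was removed (open squares). The intervals of *Dnmt3b* and *Bmi1* lie above 0 in both, and those of the other 6 genes all take in 0 after the removal.

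Gene length moved with the differences over the whole table. Across the 11552 genes tested, length and log2 fold change had a Spearman correlation of -0.28, a description over genes, which are not independent replicates. Of the 1494 genes of up to 1000 bases, 23.4% were higher and 6.36% lower in cKO LSKs, whereas of the 401 genes over 12000 bases 2.74% were higher and 26.4% lower. *Dnmt3a*, the 3 *Tet* genes and *Kmt2a* all belong to the latter class, with 15457 to 16870 bases each. The median log2 fold change of that class was -0.10, beside -0.26 for *Dnmt3a*, -0.22 for *Kmt2a* and -0.16 for *Tet3*. *Dnmt3b*, at 5106 bases, lay in the class of 4000 to 6000 bases with a median of -0.05, and its own value of 0.49 was far above it. After the length trend was removed the log2 fold changes were 0.54 for *Dnmt3b* (adjusted p = 0.000145) and 0.33 for *Bmi1* (adjusted p = 0.00502), and those of the other 6 genes lay between -0.15 and -0.03. The part that length, or anything that travels with it, has in the 3 falls was not tested beyond this removal.

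**Figure D4:**
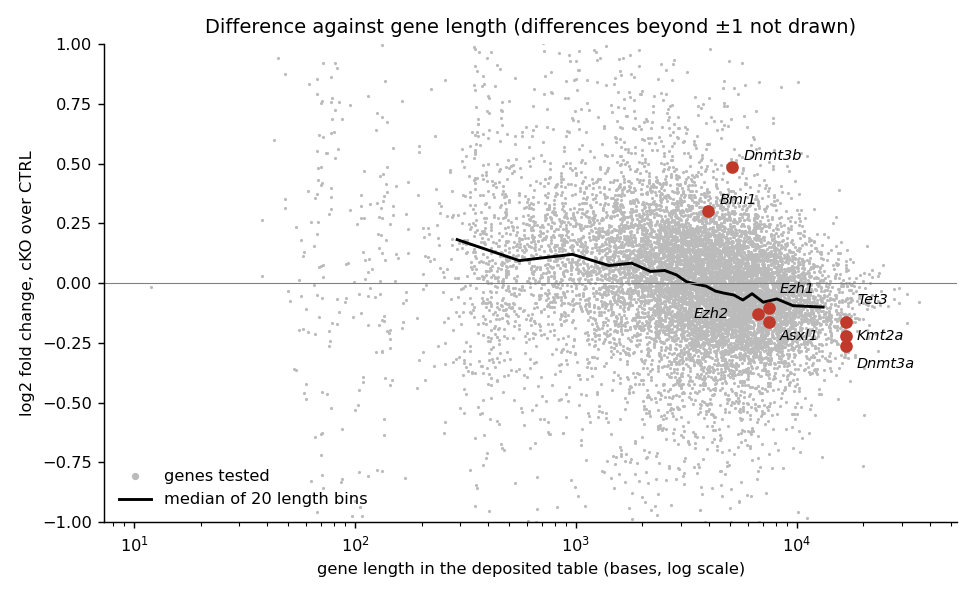
Log2 fold change of cKO over control LSKs (vertical axis) against gene length in bases (horizontal log axis) for the genes tested (grey), the 8 regulators tested (red) and the median of 20 length classes (black line). The line falls from the short to the long genes, and *Tet3*, *Kmt2a* and *Dnmt3a* lie below it at the long end at -0.16, -0.22 and -0.26, while *Dnmt3b* and *Bmi1* lie above it at 0.49 and 0.30.

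Over the 5 partner lists together, 75 of 82 genes were tested, of which 11 rose and 27 fell. Over all genes tested, 19.9% were higher and 20.6% lower. The partner genes had a median log2 fold change of -0.12 and a median length of 5698 bases, against 3692.5 bases over all genes tested. With the length trend removed, 13 of the partner genes were higher and 20 lower, beside 2253 and 2099 of all 11552 genes tested.

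Among 17 genes known to respond to PRC2, BMI1 or KMT2A, 8 were tested, of which 3 rose, 1 fell and 4 did not pass (median log2 fold change 0.06). That is 37.5% higher and 12.5% lower, beside 19.9% and 20.6% of all genes tested. Without cKO replicate 2, 2 fell. *Hoxa9* and *Hoxa10*, homeobox genes that KMT2A keeps active in stem cells, rose from 11.97 ± 0.469 to 13.9 ± 0.641 FPKM (log2 fold change of 0.20 at an adjusted p of 0.0161) and from 1.56 ± 0.324 to 2.69 ± 0.0803 FPKM (0.53, adjusted p = 0.00595). *Hmga2*, a chromatin architecture gene of fetal stem cells, rose from 1.65 ± 0.173 to 2.73 ± 0.240 FPKM (0.49, adjusted p = 0.00375). The cell cycle inhibitor *Cdkn1a* (p21) fell from 13.1 ± 1.33 to 8.64 ± 0.690 FPKM (-0.55, adjusted p = 0.00265). *Cdkn2a*, the best known gene repressed by BMI1, lay at 0 to 0.137 FPKM in every library, too low for a difference to be seen.

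Of 31 other genes mutated in clonal hematopoiesis, 29 were tested, of which 3 rose, 15 fell and 11 did not pass (median log2 fold change -0.15). That is 10.3% higher and 51.7% lower, beside 19.9% and 20.6% of all genes tested. The splicing factors *Srsf2* and *U2af1* rose (log2 fold change 0.29, adjusted p = 0.00049, and 0.18, adjusted p = 0.00191). *Idh1*, described above, fell most, followed by the transcription factor *Runx1*, from 8.41 ± 0.406 to 5.41 ± 0.252 FPKM (-0.55, adjusted p = 0.000381), and by *Bcor*. With the length trend removed, 10 of the 29 were lower.

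**Figure D5:**
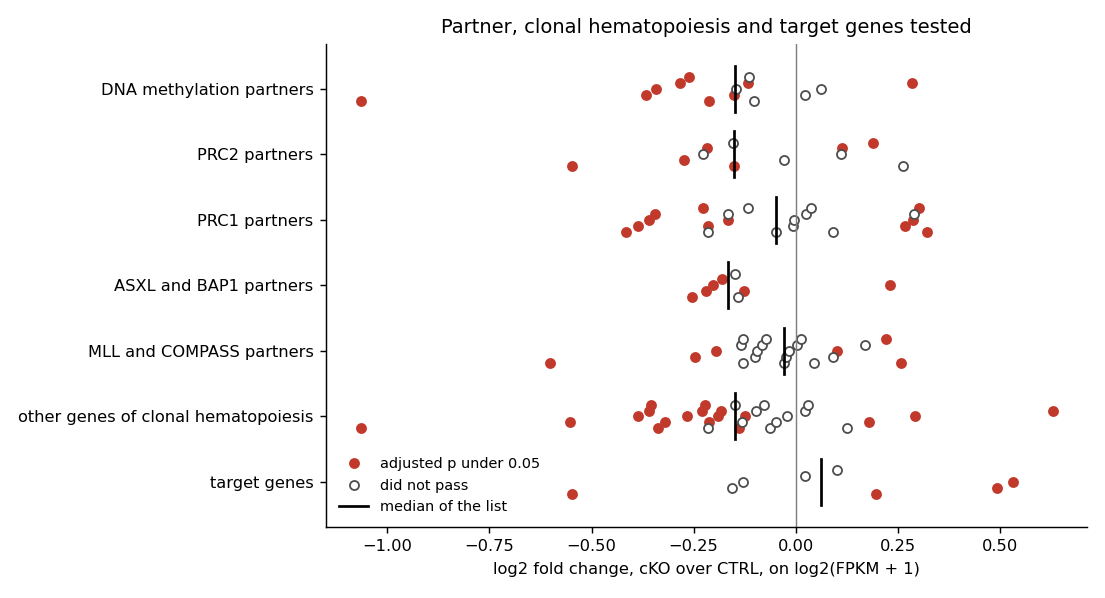
Log2 fold change of cKO over control LSKs (horizontal axis, on log2(FPKM + 1)) of every gene tested in the 5 partner lists, the other clonal hematopoiesis genes and the target genes; filled points had an adjusted p under 0.05, and the black bars are list medians. The list medians run from -0.16 for the ASXL and BAP1 partners to 0.06 for the target genes, and *Idh1* stands farthest left at -1.06.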

How the data were processed

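Per the labels, libraries were made from total RNA with an Illumina TruSeq kit, and the submitters' processing notes name HISAT2 2.0.5 and the mm10 build. The counting program and its handling of reads with several matches are not given in the sources used here. The authors deposited FPKM values for 54532 genes, 1 column for each of the 6 libraries. Multiplied by gene length, 100% of the values in each library were whole numbers of reads (tolerance 0.05), from which reads were recovered.

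The genes averaging 1 FPKM or more were tested on log2(FPKM + 1), a scale that understates the change of low genes, with limma 3.58.1 in R 4.3.3 (eBayes with trend, two-sided, Benjamini-Hochberg over the 11552 genes). The 10 genes and the lists were chosen with earlier results of these data known. Named list genes are at most the 3 largest rises and 3 largest falls among those with an adjusted p under 0.05. Some genes that this rule names are not reported here. Ratios were tested by exact permutation over libraries. The alternatives were other pseudocounts, filters, scalings and moderation, removal of trends with length and GC content, a replicate block, leaving out each library and voom on the recovered reads; voom over genes with a mean of at least 50 reads was added after seeing the data. Same-numbered libraries did not deviate together (correlations of -0.026 to -0.0046), so the numbers were not taken to pair libraries. Promoters came from RefSeq (GRCm38.p6), and all 10 symbols matched. Intervals are those of limma and rest on the spread between libraries.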

Additional observations from a re-analysis of the deposited data

How the results depend on the processing

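The 2 rises, *Dnmt3b* and *Bmi1*, passed under all 19 alternatives, and *Myh9* was lower under all 19. *Myh9*, at 12928 bases, is itself a long gene. Its log2 fold change moved from -0.26 to -0.15 with the length trend removed (adjusted p = 0.0384, limma). The 3 falls were less stable: the number of the 10 genes called lower was 0 with the length trend removed, 0 with GC and length trends removed and 0 with no filter on low values (limma; 0, 0 and 4 genes at an unadjusted p under 0.05), 1 with no moderation, 5 with voom on recovered reads, 5 with voom on genes with a mean of at least 50 reads, and 0 to 2 when 1 library was left out (0 without control replicate 2 or without cKO replicate 2). Of the 10 genes, none tested changed sign under any alternative. Removing the length trend moves the values by its own construction, and the cause of the other losses was not tested. Partner genes called higher, 11 of 75, numbered 7 with no filter, 6 with no moderation and 6 to 8 with 1 library left out; those called lower, 27, numbered 17 to 22 with 1 library left out (17 without control replicate 1 or 3).

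With the replicate block, 2 of the 10 genes were called lower, *Kmt2a* being lost, and 4107 in place of 4673 of all genes tested were called. The log2 ratios of the *Tet* genes lay near 0 and changed sign: *Tet3* to *Tet2* was 0.0064 with no pseudocount and -0.079 to 0.011 with 1 library left out, *Tet1* to *Tet3* was -0.082 with a pseudocount of 0.1, -0.14 with none and -0.0044 to 0.12 with 1 library left out, and *Tet1* to *Tet2*, which was -0.0004, was -0.090 with a pseudocount of 0.1, -0.14 with none and -0.062 to 0.10 with 1 library left out. Depth limits *Tet1* and *Tet2*, with 84 to 322 reads a library.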

Other observations

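Genes of cell division moved in both directions. All 22 proliferation genes listed were tested, of which 5 were higher in cKO LSKs, 11 lower and 6 did not pass (limma, median log2 fold change -0.09). That is 22.7% higher and 50% lower, beside 19.9% and 20.6% of all genes tested. *Ccne1*, which encodes the cyclin of S phase entry, was higher (log2 fold change 0.35, adjusted p = 0.00538), as were the mitotic genes *Ccnb1* (34.2 ± 0.484 and 43.0 ± 2.67 FPKM, 0.32, adjusted p = 0.00224) and *Cdc20* (0.24, adjusted p = 0.000541). *E2f2*, an activator of S phase genes (-0.49, adjusted p = 0.00952), the topoisomerase gene *Top2a* (-0.36, adjusted p = 0.000213) and the replication helicase gene *Mcm6* (114 ± 1.10 and 89.8 ± 1.21 FPKM, -0.34, adjusted p = 0.000102) were lower.

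Both groups had received poly I:C, and none of the 13 interferon-stimulated genes tested (of 15 listed) was higher in cKO LSKs, also at an unadjusted p under 0.05 or with voom, while 7 were lower and 6 did not pass (limma). Over all genes tested, 19.9% were higher and 20.6% lower. *Ifi27l2a* averaged 119 ± 6.70 FPKM in control and 73.3 ± 5.11 FPKM in cKO LSKs (log2 fold change -0.69, adjusted p = 0.000289), *Ifi44* 2.61 ± 0.220 and 1.43 ± 0.221 FPKM (-0.57, adjusted p = 0.00333) and the antiviral gene *Oas1a* 34.1 ± 1.53 and 26.1 ± 1.16 FPKM (-0.38, adjusted p = 0.00122). Among the 7 markers of LSKs, *Procr* (0.67, adjusted p = 0.00145) and the cytokine receptor gene *Flt3* (0.58, adjusted p = 0.000147) were higher, and *Kit*, the receptor used in the sort, was lower (-0.14, adjusted p = 0.0105).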
